A study of Mus musculus with 18 samples.

Results

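The genes described here are 45 members of a module formed by Myc and the machinery that builds ribosomes. They were chosen by symbol, with earlier results of these data known. The list may thus not be independent of the responses described below. All 45 of them were found among the 24028 genes of the table of gene counts. All 45 also passed the filter on low counts that left 13602 genes for testing. Their levels were followed in 18 libraries of polyadenylated RNA from C2C12, a mouse myoblast cell line. Each of 3 derived lines carried a doxycycline-inducible transgene, under puromycin selection: a codon-altered mouse Dux, a codon-altered human DUX4, or the control firefly luciferase. The proteins Dux and DUX4 bind DNA through a pair of homeodomains and activate transcription. The 6 groups were mouse Dux induced and uninduced, human DUX4 induced and uninduced, and luciferase induced and uninduced, with 3 separately grown cultures in each. Induction lasted 36 h with 2 µg/ml doxycycline, which the uninduced cultures did not receive. Each transgene was studied in a single clonal line, so transgene, line and clone cannot be told apart.

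Ribosomes are built in the nucleolus. RNA polymerase I transcribes a long precursor rRNA there, small nucleolar ribonucleoproteins (snoRNPs) guide its chemical modification and cleavage, and a large set of assembly factors folds it with ribosomal proteins into the 40S and 60S subunits. Myc is a transcription factor that binds the E-box sequence CACGTG, and it is known in many cell types as an activator of genes for ribosome production and growth. In muscle, proliferating myoblasts make ribosomes to support division and growth.

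Total counts ranged from 11010586 to 17179642 per library. Levels are given as CPM, the counts scaled to a common library size after TMM normalisation in edgeR. Markers of differentiation differed between the lines. The summed level of 6 myotube markers was 422 to 472 CPM in induced and 792 to 857 CPM in uninduced luciferase cultures, against at most 13.1 CPM in any library of the other 2 lines. The summed level of 7 myoblast markers was 1391 to 1505 CPM in induced and 1310 to 1368 CPM in uninduced mouse Dux cultures, and 174 to 186 CPM in induced and 513 to 536 CPM in uninduced human DUX4 cultures. In the luciferase line it was 1985 to 2112 CPM when induced and 2572 to 2605 CPM when uninduced. With mouse Dux, 2 of the 6 myoblast markers tested rose and 4 fell, so the sum hides changes in both directions. Des averaged 948 CPM in induced and 718 CPM in uninduced mouse Dux cultures, and Vcam1 201 CPM in induced and 91.2 CPM in uninduced ones. On the other side, Cdh15 averaged 54.5 CPM in induced and 190.2 CPM in uninduced cultures, and Myod1 88.1 CPM in induced and 123 CPM in uninduced ones. Itga7 averaged 166 CPM in induced and 222 CPM in uninduced cultures, and Myf5 fell as well. With human DUX4, 1 of these 6 markers rose and 5 fell. Of all genes tested, 34.1% were called higher and 34.8% lower with mouse Dux, and 34.4% and 33.1% with human DUX4. Of the myoblast markers, Msc averaged 0.0427 to 0.263 CPM over the 6 groups, and Myf5 averaged 0.0438 CPM in induced and 0.258 CPM in uninduced mouse Dux cultures. The summed level of 12 markers of fat, blood, endothelial and epithelial cells was 5.33 to 6.38 CPM in induced and 1.95 to 2.87 CPM in uninduced mouse Dux cultures, 20.02 to 23.8 CPM in induced and 2.50 to 3.17 CPM in uninduced human DUX4 cultures, and 24.01 to 28.7 CPM in the luciferase line. Among them Fabp4 rose with mouse Dux (3.94, log2) and Cd68 with human DUX4 (3.58), so these sums moved with induction in the same cultures as the module. Cfd was at 0 in every library of all groups. The part of these marker differences in the results below was not tested. In these bulk samples, fewer cells of a type and less RNA per cell cannot be told apart. Library 1 of induced and library 1 of uninduced mouse Dux cultures stood apart from the other libraries of their groups. Against libraries 2 and 3 their counts had a chi-square per degree of freedom of 34.0 and 36.4 when induced. When uninduced it was 5.16 and 5.25, against at most 2.79 for any other pair of the same group. The numbers of members called in comparisons that use these libraries, and some single genes, are given with and without them.

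Of the 45 genes, 38 had a promoter window in the RefSeq table for GRCm38.p6, which covers 250 bases before to 50 bases after each start site. The other 7 were Rrs1, Npm1, Gnl2, Myc, Rrp12, Fbl and Bop1. CACGTG reads the same on both strands, so one search covers both of them. It was present in the windows of 10 of the 38 genes (26.3%, exact 95% binomial interval 13.4% to 43.1%) and in those of 11.4% of 10773 tested genes with a window. In the 250 bases before the start alone it was present in 3 of 38 (7.89%), against 9.64% of the tested genes. These 3 genes, Nop2, Imp4 and Rrn3, are shown as 100 bases of GRCm38.p6 sequence on the plus strand, because they are the members with the motif upstream. Capitals mark CACGTG. Rrn3 has another copy further upstream, outside the stretch shown.
Nop2, chr6:125131776-125131875: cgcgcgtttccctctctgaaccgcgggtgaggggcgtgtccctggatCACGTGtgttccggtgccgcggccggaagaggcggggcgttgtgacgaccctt
Imp4, chr1:34439661-34439760: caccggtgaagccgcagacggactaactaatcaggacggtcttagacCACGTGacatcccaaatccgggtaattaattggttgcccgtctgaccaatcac
Rrn3, chr16:13780599-13780698: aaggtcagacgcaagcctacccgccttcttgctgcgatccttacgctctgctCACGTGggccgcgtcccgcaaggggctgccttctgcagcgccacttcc
In the other 7 genes the motif lay at or after the start. Their 26-base sites, picked after the positions were seen, show the different letters that flank it.
Mdn1, chr4:32657143-32657168, plus strand: gtgaattccttcacCACGTGtgtgtc
Utp20, chr10:88826765-88826790, minus strand: gcggcactaactaCACGTGaggaaaa
Pes1, chr11:3963967-3963992, plus strand: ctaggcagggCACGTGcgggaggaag
Pno1, chr11:17211540-17211565, minus strand: ctgtacaaccacgCACGTGttcctct
Mybbp1a, chr11:72441351-72441376, plus strand: gactgtcttctgagccCACGTGtttg
Tsr1, chr11:74898094-74898119, plus strand: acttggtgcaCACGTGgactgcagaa
Wdr43, chr17:71616222-71616247, plus strand: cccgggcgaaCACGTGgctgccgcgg
The responses of genes with and without the motif are given as a description. The median log2 fold change was 0.74 with and 0.73 without it in the mouse Dux line, and −0.69 with and −0.66 without it in the human DUX4 line (10 and 28 genes).

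The first comparison asked how the module responded to mouse Dux. Of the 45 genes, 43 rose and 2, Ubtf and Bop1, fell, where 34.1% of all genes tested were called higher and 34.8% lower (edgeR quasi-likelihood test, Benjamini-Hochberg adjusted p under 0.05). The median log2 fold change was 0.73 over the members and −0.01 over all genes tested. In 39 members all 3 induced libraries lay above all 3 uninduced libraries, and in 2 they lay below, against 32.4% and 33.5% of all genes tested. The groups overlapped in Gar1, Mdn1, Polr1a and Utp20. The largest rise was that of Nop56, a core protein of box C/D snoRNPs.

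The second comparison asked the same of human DUX4. Here 42 members fell and 1, Gnl2, rose, where 33.1% of all genes tested were called lower and 34.4% higher. The median was −0.68 over the members and 0.00 over all genes tested. All induced libraries lay below all uninduced ones in 42 members and above them in 1, against 36.4% and 37.9% of all genes tested. Rrn3 (−0.05 ± 0.05 on the log2 scale, SE, adjusted p = 0.361) and Noc4l (0.04 ± 0.08, adjusted p = 0.729) did not pass the test. The largest fall was that of Myc itself.

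In 40 of the 45 genes the call was higher with mouse Dux and lower with human DUX4. Ubtf and Bop1 fell in both lines, Gnl2 rose in both, and Rrn3 and Noc4l rose with mouse Dux and were not called with human DUX4. The difference between the 2 responses, tested as an interaction, was above 0 in 44 of 45 members, where 32.9% of all genes tested passed in that direction and 32.3% in the other. Its median was 1.38 over the members and 0.02 over all genes tested. The exception was Ubtf (0.11 ± 0.08, SE, adjusted p = 0.246), which was called higher without induced mouse Dux library 1 (0.18). Across the 45 genes the responses had a Pearson r of 0.07 and a Spearman rho of 0.15, given as a description, since genes in the same libraries are not independent.

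**Figure D1:**
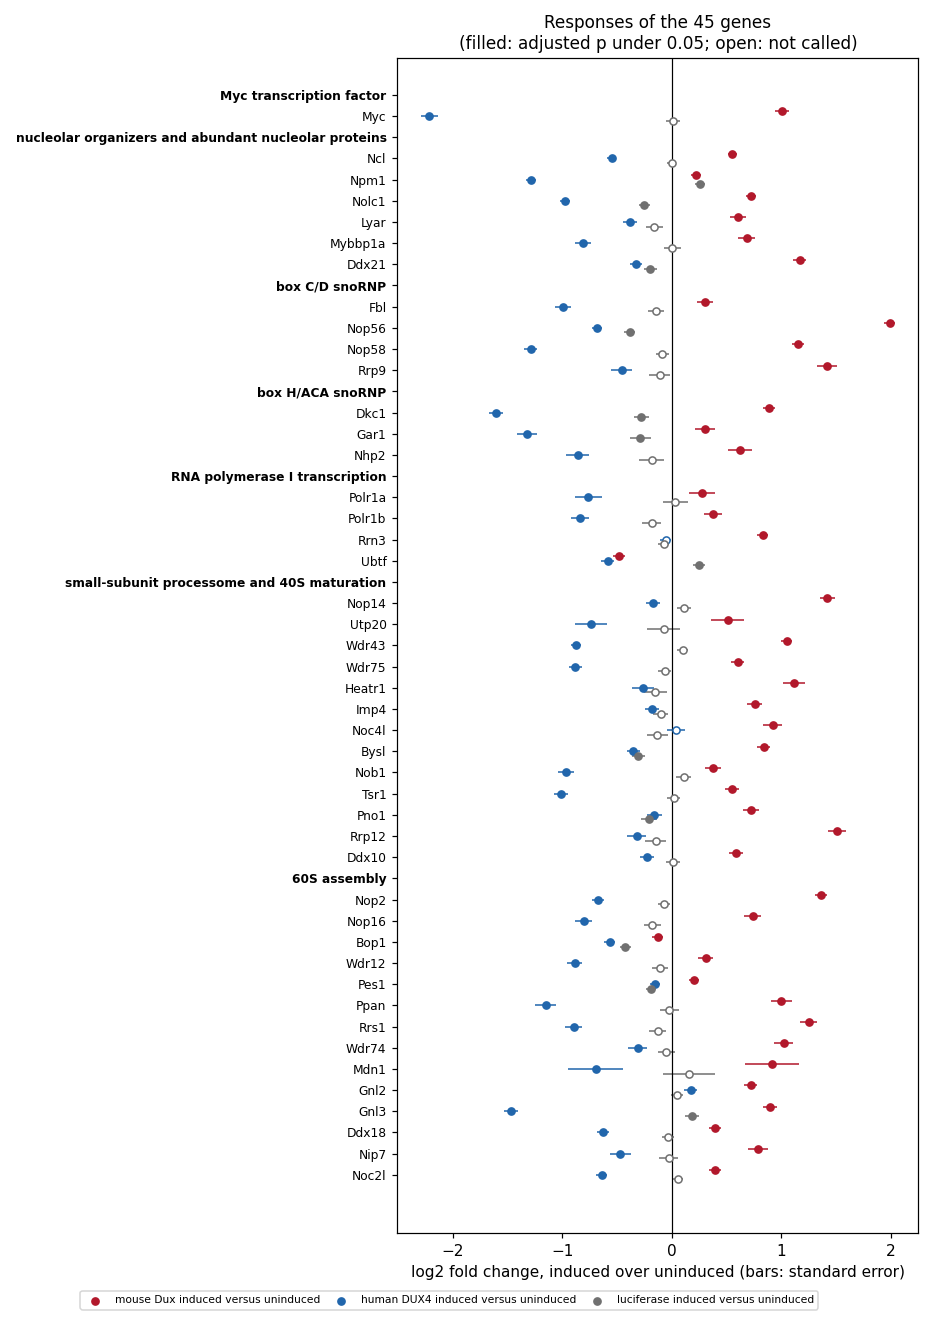
Log2 fold change of each of the 45 genes, induced over uninduced (horizontal axis), for mouse Dux (red), human DUX4 (blue) and luciferase (grey), in order of role from top to bottom, with bars for the standard error and filled points for an adjusted p under 0.05. Mouse Dux points lie right of 0 for 43 called genes, and human DUX4 points lie left of 0 for 42.

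**Figure D2:**
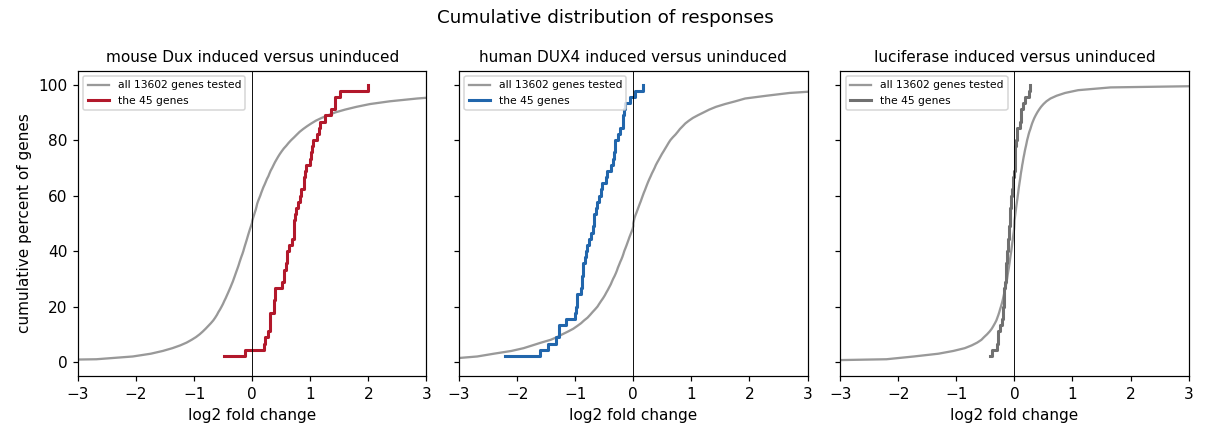
Cumulative percent of genes (vertical axis) by log2 fold change (horizontal axis) for the 45 genes (coloured) and all 13602 genes tested (grey), in 1 panel per line. The member curve has its median at 0.73 for mouse Dux, −0.68 for human DUX4 and −0.07 for luciferase.

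Doxycycline alone was examined in the luciferase line. There 3 members rose (Npm1, Ubtf and Gnl3) and 9 fell, where 14.7% of all genes tested were called higher and 16.4% lower. Gnl3 was not called with DESeq2 (0.17) or on leaving out any single luciferase library other than induced library 2 (0.12 to 0.20). Pno1, Gar1 and Ddx21, among those that fell, also lost the call on leaving out some single libraries. The groups did not overlap in 6 members that were higher and 16 that were lower when induced (26.6% and 26.3% of all genes tested). The median was −0.07 over the members and 0.00 over all genes tested, and the largest change was −0.42 ± 0.05 for Bop1 (log2, SE, adjusted p = 1.95e-06). Measured against this response, the mouse Dux response was higher in 41 members and lower in 1, Ubtf (30.4% and 29.5% of all genes tested), with a median difference of 0.81. The human DUX4 response was lower in 32 members and higher in 0 (26.7% and 28.3% of all genes tested), with a median difference of −0.65. Both use the same luciferase libraries. All 16 replication and mitosis genes fell in the luciferase line (median −2.09), while its ribosome biogenesis members stayed within 0.42 of 0 on the log2 scale.

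Myc lies at chr15:61985391-61990374 on the plus strand of GRCm38, the build of all positions below. It measured 48.3, 42.7 and 42.5 CPM in induced mouse Dux cultures, against 21.4, 21.7 and 23.4 CPM in uninduced ones. In the human DUX4 line it measured 6.61, 7.13 and 7.36 CPM when induced, against 32.6, 31.9 and 33.3 CPM when uninduced. In the luciferase line it measured 34.8, 31.4 and 32.4 CPM when induced, against 33.2, 33.5 and 31.01 CPM when uninduced. The groups did not overlap in either responding line, and they overlapped in the luciferase line. Myc rose by 1.01 ± 0.06 on the log2 scale with mouse Dux (SE, adjusted p = 4.77e-11) and changed by −2.21 ± 0.08 with human DUX4 (adjusted p = 4.72e-15). With luciferase the change was 0.01 ± 0.06 (adjusted p = 0.907). The difference of 3.22 ± 0.10 between the mouse Dux and human DUX4 responses was the largest in the module (adjusted p = 2.41e-15).

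The nucleolar organizers and abundant nucleolar proteins were 6 genes, all of which rose with mouse Dux (median 0.64) and fell with human DUX4 (median −0.68). Ncl encodes nucleolin, which binds precursor rRNA. It measured 979, 999.6 and 1026 CPM in induced mouse Dux cultures, against 707, 669 and 671 CPM in uninduced ones, and 653, 679 and 663 CPM in induced human DUX4 cultures, against 978, 978 and 956 CPM in uninduced ones. It was higher in every induced mouse Dux library and lower in every induced human DUX4 library than in the uninduced ones, with changes of 0.55 ± 0.04 and −0.55 ± 0.04 (log2, SE). Npm1 encodes nucleophosmin, a histone and ribosome chaperone. It measured 760.0, 706 and 743 CPM in induced and 658, 624 and 611 CPM in uninduced mouse Dux cultures, and 269, 274 and 264 CPM in induced and 674, 649 and 646 CPM in uninduced human DUX4 cultures. Its rise with mouse Dux was small (0.22 ± 0.05, adjusted p = 0.000251) and near its rise with luciferase (0.26 ± 0.05, adjusted p = 0.000189), with a difference of −0.04 ± 0.06 between these responses (adjusted p = 0.649). With human DUX4 it changed by −1.29 ± 0.05 (adjusted p = 6.54e-15). Npm1 has processed copies elsewhere in the genome and its counts are uncertain, since no source used here names the counting program. Nolc1, a chaperone of snoRNPs, changed by 0.72 with mouse Dux and −0.97 with human DUX4, and the RNA helicase Ddx21 by 1.17 and −0.33. Lyar and Mybbp1a, 2 further nucleolar proteins, changed by 0.60 and 0.68 with mouse Dux and by −0.38 and −0.81 with human DUX4.

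The box C/D snoRNPs carry out 2′-O-methylation of rRNA, and their 4 members had the highest median of any role with mouse Dux, at 1.28. Nop56 (chr2:130274430-130279313, plus strand) and Nop58 (chr1:59684971-59719044, plus strand) encode proteins of the core around the guide RNA. Nop56 measured 257, 239.7 and 239 CPM in induced mouse Dux cultures, against 62.3, 63.5 and 59.9 CPM in uninduced ones. In the human DUX4 line it measured 85.3, 86.3 and 85.8 CPM when induced, against 141, 134 and 139 CPM when uninduced. It was 3.97-fold higher with mouse Dux, by 1.99 ± 0.05 on the log2 scale (adjusted p = 1.19e-17), and it changed by −0.68 ± 0.05 with human DUX4 (adjusted p = 8.40e-11). Nop58 measured 159.7, 141 and 145 CPM in induced and 69.95, 66.9 and 64.2 CPM in uninduced mouse Dux cultures, and 52.3, 56.7 and 52.6 CPM in induced and 133, 132 and 130.2 CPM in uninduced human DUX4 cultures. It changed by 1.15 ± 0.06 with mouse Dux and −1.29 ± 0.06 with human DUX4, with no overlap of groups. Rrp9, which binds the U3 snoRNA, measured 43.7, 38.1 and 33.3 CPM in induced and 14.8, 14.5 and 13.96 CPM in uninduced mouse Dux cultures, and 18.5, 19.4 and 17.7 CPM in induced and 25.4, 25.9 and 25.04 CPM in uninduced human DUX4 cultures. Its responses were 1.42 ± 0.09 and −0.46 ± 0.09. The methyltransferase gene Fbl (fibrillarin) rose least of the 4, by 0.30 ± 0.07 (adjusted p = 0.000983), and changed by −0.99 ± 0.07 with human DUX4.

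The box H/ACA snoRNPs convert uridines of rRNA to pseudouridine, and their 3 members had the lowest median of the multi-gene roles with human DUX4, at −1.32. Dkc1 (chrX:75095854-75109777, plus strand) encodes the pseudouridine synthase dyskerin. It measured 64.6, 66.6 and 70.8 CPM in induced mouse Dux cultures, against 33.7, 38.6 and 36.3 CPM in uninduced ones. In the human DUX4 line it measured 17.9, 19.9 and 18.7 CPM when induced, against 57.1, 57.1 and 57.2 CPM when uninduced. Dkc1 changed by 0.89 ± 0.06 with mouse Dux (adjusted p = 4.30e-11) and by −1.60 ± 0.06 with human DUX4 (adjusted p = 1.37e-14). Gar1 measured 20.2, 18.1 and 16.1 CPM in induced and 16.9, 13.5 and 14.3 CPM in uninduced mouse Dux cultures, which overlapped, and 10.2, 11.4 and 10.8 CPM in induced and 27.3, 25.8 and 28.1 CPM in uninduced human DUX4 cultures, which did not. Its change with mouse Dux was 0.30 ± 0.09 (adjusted p = 0.00648), and it was no longer called without induced library 1 (0.21) or uninduced library 2 (0.23), or with library size only (0.06). Its change with human DUX4 was −1.32 ± 0.09 (adjusted p = 1.02e-10). The third H/ACA protein gene, Nhp2, changed by 0.63 and −0.86.

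**Figure D3:**
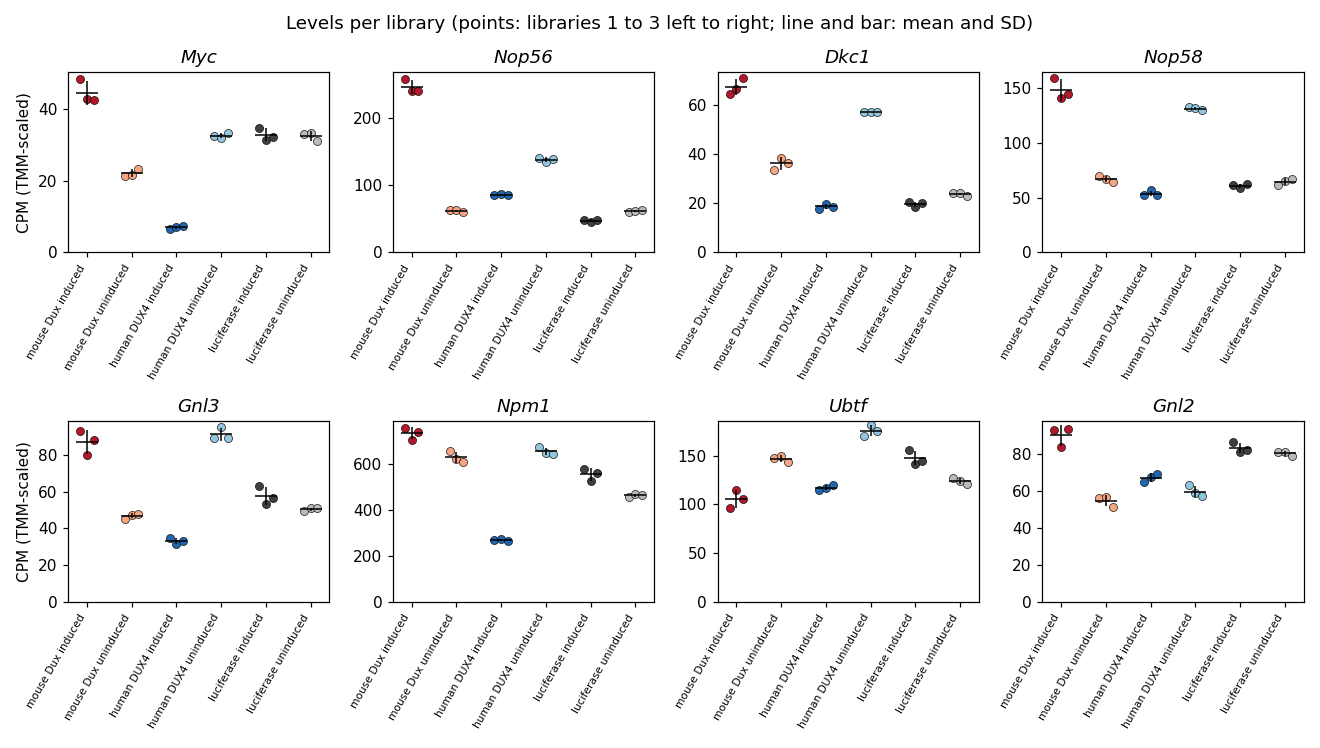
CPM (vertical axis, from 0) of 8 members in each of the 18 libraries, with points for libraries 1 to 3 from left to right in each group a short line for the mean and a bar for the SD. Myc, Nop56, Dkc1, Nop58 and Gnl3 are higher in induced than in uninduced mouse Dux libraries and lower in induced than in uninduced human DUX4 libraries, while Ubtf is lower in both.

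RNA polymerase I transcription was the role with the weakest rise with mouse Dux: 3 of 4 genes rose and 1 fell (median 0.32), and 3 of 4 fell with human DUX4 (median −0.67). Ubtf (chr11:102304560-102319742, minus strand) encodes UBF, which binds the rRNA gene promoter and keeps rRNA genes open. It measured 96.2, 114 and 106 CPM in induced mouse Dux cultures, against 148, 149 and 143 CPM in uninduced ones, and 115, 116 and 119.9 CPM in induced human DUX4 cultures, against 171, 181 and 175 CPM in uninduced ones. All induced libraries of both lines lay below the uninduced ones, with changes of −0.48 ± 0.06 (adjusted p = 3.19e-07) and −0.59 ± 0.06 (adjusted p = 1.43e-08). With luciferase it rose instead, by 0.25 ± 0.06 (adjusted p = 0.00160). Rrn3, which recruits polymerase I to the promoter, changed by 0.83 ± 0.05 with mouse Dux (adjusted p = 1.45e-11). Polr1a, the largest subunit, measured 49.2, 79.3 and 79.6 CPM in induced and 52.5, 59.1 and 59.6 CPM in uninduced mouse Dux cultures, and 40.01, 39.3 and 38.8 CPM in induced and 72.4, 65.3 and 62.2 CPM in uninduced human DUX4 cultures. The low value is that of library 1, which overlaps the uninduced range. Its change with mouse Dux was 0.27 ± 0.12 (adjusted p = 0.0495) and 0.40 without both libraries numbered 1, and with human DUX4 it was −0.76 ± 0.12. Leaving out any single library of the mouse Dux line other than induced library 1 ended its call, with values of 0.15 to 0.30. Polr1b, the second subunit, changed by 0.37 and −0.84.

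The small-subunit processome cuts and folds the 18S part of the precursor, and 40S maturation follows in the cytoplasm. All 13 members of this role rose with mouse Dux (median 0.76), and 12 fell with human DUX4, with the smallest median fall of any role (−0.32). Rrp12, known in yeast as an export factor of both subunits, measured 49.2, 56.2 and 59.7 CPM in induced mouse Dux cultures, against 17.1, 19.5 and 21.03 CPM in uninduced ones. In the human DUX4 line it measured 24.4, 26.3 and 21.9 CPM when induced, against 32.2, 28.3 and 30.2 CPM when uninduced. Its rise with mouse Dux was 1.51 ± 0.08 (adjusted p = 5.25e-12), and its change with human DUX4 was −0.32 ± 0.08. Nop14, a processome component, measured 78.1, 83.8 and 90.1 CPM in induced and 30.2, 30.7 and 33.1 CPM in uninduced mouse Dux cultures, and 40.1, 43.4 and 40.8 CPM in induced and 47.1, 45.7 and 47.1 CPM in uninduced human DUX4 cultures. It rose by 1.42 ± 0.07 with mouse Dux and changed by −0.17 ± 0.07 with human DUX4 (adjusted p = 0.0322). Imp4, a protein of the U3 snoRNP, measured 39.9, 37.1 and 38.8 CPM in induced and 22.8, 23.8 and 21.8 CPM in uninduced mouse Dux cultures, and 31.7, 32.01 and 31.5 CPM in induced and 32.7, 38.1 and 36.96 CPM in uninduced human DUX4 cultures. Pno1, which acts in late 40S maturation, measured 63.4, 53.5 and 55.3 CPM in induced and 34.6, 34.3 and 35.4 CPM in uninduced mouse Dux cultures, and 53.4, 48.2 and 47.1 CPM in induced and 54.6, 56.03 and 55.2 CPM in uninduced human DUX4 cultures. Both rose with mouse Dux, by 0.76 and 0.73, and their small changes with human DUX4, −0.18 and −0.16, lost the call without induced library 3 (−0.17 and −0.12) and without uninduced library 2 (−0.13 and −0.15) or 3 (both −0.16), as did Pno1 without induced library 2 (−0.14) and uninduced library 1 (−0.17). Nop14 lost it without induced library 1 (−0.15) or 3 (−0.16) and without uninduced library 1 (−0.16) or 3 (−0.16). Nop14 and Pno1 were also not called with median-of-ratios size factors or DESeq2 (−0.15 and −0.14 with either), Imp4 with DESeq2 (−0.16), and Pno1 with no filter on low counts (−0.17). Tsr1 and Nob1, the endonuclease that makes the 3′ end of 18S rRNA, fell most in this role with human DUX4, by 1.01 and 0.96 on the log2 scale, and rose by 0.55 and 0.38 with mouse Dux. Noc4l rose by 0.92 with mouse Dux, and the other 6 genes (Utp20, Wdr43, Wdr75, Heatr1, Bysl and Ddx10) rose by 0.51 to 1.11. Utp20 was not called with mouse Dux without induced library 3 (0.35) or with only the groups compared (0.54). Heatr1 (−0.26 with human DUX4) lost its call on leaving out any single library of that line other than induced library 2 (−0.23 to −0.27).

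The 60S assembly factors were 14 genes, of which 13 rose and 1 fell with mouse Dux (median 0.76), and 13 fell and 1 rose with human DUX4 (median −0.66). Nop2 (chr6:125131909-125144753, plus strand), a methyltransferase of the large rRNA, measured 106, 105 and 101 CPM in induced mouse Dux cultures, against 40.1, 42.6 and 38.3 CPM in uninduced ones. In the human DUX4 line it measured 37.8, 39.01 and 39.1 CPM when induced, against 62.5, 62.2 and 60.6 CPM when uninduced. It changed by 1.36 ± 0.05 with mouse Dux and by −0.68 ± 0.05 with human DUX4. Gnl3 (chr14:31012433-31019152, minus strand) encodes nucleostemin, a GTPase of the nucleolus. It measured 93.1, 80.2 and 87.98 CPM in induced and 45.2, 47.2 and 47.98 CPM in uninduced mouse Dux cultures, and 34.6, 31.6 and 33.01 CPM in induced and 89.3, 95.3 and 89.2 CPM in uninduced human DUX4 cultures. It changed by 0.90 ± 0.06 and −1.46 ± 0.07, with no overlap of groups. Its relative Gnl2 measured 92.7, 83.6 and 93.7 CPM in induced and 55.9, 56.8 and 51.4 CPM in uninduced mouse Dux cultures, and 64.6, 67.6 and 69.4 CPM in induced and 63.2, 58.8 and 56.95 CPM in uninduced human DUX4 cultures. Gnl2 was the single member that rose with human DUX4, by 0.17 ± 0.06 (adjusted p = 0.0121), and it was not called without induced library 3 (0.15) or uninduced library 3 (0.14) of that line. Ppan (chr9:20888175-20892178, plus strand), an early 60S factor, measured 32.9, 27.9 and 27.3 CPM in induced and 13.6, 14.6 and 15.8 CPM in uninduced mouse Dux cultures, and 15.03, 12.4 and 11.98 CPM in induced and 30.3, 28.6 and 28.6 CPM in uninduced human DUX4 cultures. Rrs1 (chr1:9545408-9547455, plus strand), which helps to bring the 5S ribonucleoprotein into the subunit, measured 56.6, 47.98 and 46.6 CPM in induced and 20.5, 20.9 and 22.1 CPM in uninduced mouse Dux cultures, and 22.8, 25.5 and 23.8 CPM in induced and 43.9, 44.9 and 45.6 CPM in uninduced human DUX4 cultures. Both were higher in every induced than in every uninduced mouse Dux library, and lower in every induced than in every uninduced human DUX4 library. The difference of responses was 2.15 ± 0.13 for Ppan and 2.14 ± 0.11 for Rrs1 (SE).

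Pes1, Bop1 and Wdr12 form the PeBoW complex, which is needed to process the large-subunit rRNA, and all 3 responded weakly to mouse Dux. Pes1 measured 106, 102 and 106 CPM in induced and 89.4, 89.4 and 94.4 CPM in uninduced mouse Dux cultures, and 99.4, 98.8 and 105 CPM in induced and 109, 113 and 115 CPM in uninduced human DUX4 cultures. Bop1 measured 97.5, 99.04 and 92.6 CPM in induced and 106, 109 and 102 CPM in uninduced mouse Dux cultures, and 109, 100.2 and 106 CPM in induced and 148, 155 and 164 CPM in uninduced human DUX4 cultures. Induced and uninduced cultures did not overlap for either gene in these 2 lines, but those of the mouse Dux line lay close together for Bop1. With mouse Dux, Pes1 changed by 0.20 ± 0.04 (adjusted p = 0.000479), Bop1 by −0.13 ± 0.05 (adjusted p = 0.0307) and Wdr12 by 0.31 ± 0.07 (adjusted p = 0.000614). With human DUX4 the changes were −0.15 ± 0.04, −0.56 ± 0.05 and −0.89 ± 0.07. Bop1 also fell with luciferase (−0.42 ± 0.05). Its fall with mouse Dux was not called under 6 of the alternatives, among them those without induced library 3 (−0.11), uninduced library 1 (−0.13) or uninduced library 2 (−0.11). The other 60S factors (Nop16, Wdr74, Mdn1, Ddx18, Nip7 and Noc2l) rose by 0.39 to 1.02 with mouse Dux and fell with human DUX4. Mdn1 (−0.70 with human DUX4) was not called without induced library 1 (−0.61) or uninduced library 1 (−0.66) of that line. Its rise with mouse Dux was not called with only the groups compared (0.94).

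The lines differed before induction. The human DUX4 line had 35 members higher and 4 lower than the luciferase line when both were uninduced, where 36.0% of all genes tested were higher and 37.0% lower, with a median of 0.57. The mouse Dux line had 7 higher and 16 lower (32.2% and 33.1% of all genes tested), with a median of −0.05. Among the members higher in the uninduced human DUX4 line were Lyar (1.58), Dkc1 (1.27) and Nop56 (1.16), whereas Myc was 0.00 (adjusted p = 0.995). The uninduced human DUX4 libraries enter both this comparison and the human DUX4 response, so a high baseline and a fall on induction share them. For that reason induced cultures were also set against induced luciferase cultures, a comparison added after the data were seen. Induced mouse Dux cultures had 36 members higher and 2 lower, Noc2l and Ubtf (40.5% and 39.4% of all genes tested, median 0.75). Induced human DUX4 cultures had 14 higher and 20 lower (39.1% and 39.8% of all genes tested, median −0.09). Myc was lower in induced human DUX4 than in induced luciferase cultures (−2.22 ± 0.08, adjusted p = 1.55e-15), while Lyar (1.36), Noc4l (1.18) and Nop56 (0.86) were higher. In the luciferase cultures the myotube markers were high and the replication and mitosis genes low (236 to 253 CPM induced, 721 to 753 CPM uninduced, against 1587 to 3499 CPM in the other 2 lines), and the part of this in these comparisons was not tested.

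The summed level of the 45 genes was 5038.2, 5149.7 and 5261.8 CPM in induced mouse Dux cultures, against 3349, 3348 and 3303 CPM in uninduced ones. In the human DUX4 line it was 2952, 3020.5 and 2970.5 CPM when induced, against 4812, 4803 and 4724 CPM when uninduced. In the luciferase line it was 3323, 3086 and 3209.6 CPM when induced, against 3202, 3183 and 3215 CPM when uninduced. The sums did not overlap between induced and uninduced cultures of either responding line. Induced mouse Dux and uninduced human DUX4 cultures had the highest sums, and induced human DUX4 cultures were below all luciferase cultures. Ncl and Npm1 alone made up 31.2% to 40.7% of each sum. Without these 2 genes the sums were 2029, 2068 and 2043 CPM in induced human DUX4 cultures. They were 2184, 2043 and 2105 CPM in induced luciferase cultures, so these groups then overlapped. In induced mouse Dux libraries the 10 most abundant genes made up 12.4% to 13.8% of all counts, against 3.98% to 6.23% elsewhere. With library size only, the median of all genes in the mouse Dux comparison shifted by −0.24, the split of all calls was 3199 higher and 6922 lower (4643 and 4728 with TMM), and 34 members were higher and 2 lower (median 0.48). Pes1 and Npm1 then changed sign, to −0.04 and −0.02, and the calls of Fbl, Gar1, Polr1a, Polr1b, Utp20, Nob1 and Wdr12 were lost. Under that scaling the split of all calls was 3538 higher and 5582 lower in the difference between the mouse Dux and human DUX4 responses (4471 and 4397 with TMM), of which 44 members were again higher. It was 2832 higher and 5972 lower in the mouse Dux minus luciferase response (4139 and 4017 with TMM), with 33 members higher and 2 lower.

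**Figure D4:**
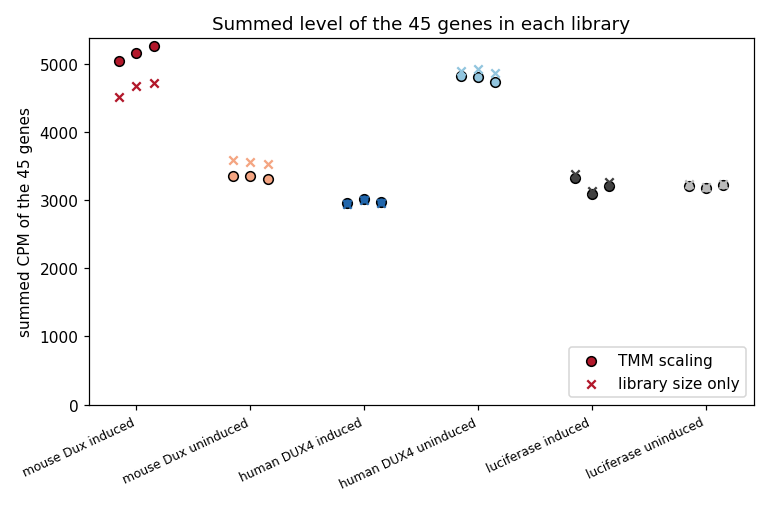
Summed CPM of the 45 genes (vertical axis, from 0) in each library, by group, with circles for TMM scaling and crosses for library size only. Induced mouse Dux libraries lie at 5038.2 to 5261.8 CPM and uninduced ones at 3303 to 3349 CPM, and induced human DUX4 libraries at 2952 to 3020.5 CPM and uninduced ones at 4724 to 4812 CPM.

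Library 1 of each mouse Dux group measured the longest members low. Mdn1, a very large ATPase of 60S assembly, had 44.2, 115 and 136 CPM in induced mouse Dux cultures, against 38.3, 56.4 and 60.4 CPM in uninduced ones. The first value is the lowest in both groups, and in induced cultures it falls within the range of uninduced ones. Utp20, Polr1a and Heatr1, the next longest genes, were low in induced library 1 as well. Across the 45 genes, the log2 level in library 1 over the mean of libraries 2 and 3 went with the log10 of gene length. The length was defined in 4 ways, tried one after another with the values in view: all annotated exons joined, the principal transcript, transcripts paired with RefSeq mRNAs, and the longest coding sequence. Pearson r ran from −0.70 to −0.90 in the induced and from −0.47 to −0.74 in the uninduced mouse Dux group. It was strongest for coding length, which was tried last and is plotted. In the other 4 groups r ran from −0.28 to 0.40 over the same definitions. These are descriptions over genes of the same libraries. Without both libraries numbered 1, the response to mouse Dux again had 43 members higher and 2 lower, with the same call in all 45 and a median of 0.71. Of all genes tested, 34.2% were then higher and 37.0% lower. Mdn1 then changed by 1.09, against 0.91 with all libraries, Utp20 by 0.68, against 0.51, and Heatr1 by 1.19, against 1.11. Some shorter members rose less without these libraries: Noc4l by 0.75, against 0.92, Nhp2 by 0.46, against 0.63, and Fbl by 0.21, against 0.30. The difference between the mouse Dux and human DUX4 responses was then above 0 in all 45 members, with Ubtf at 0.19 (adjusted p = 0.00349). In that comparison 35.4% of all genes tested were higher and 33.3% lower. The mouse Dux minus luciferase response was then higher in 42 and lower in 1 (32.1% and 32.5% of all genes tested). Uninduced mouse Dux against uninduced luciferase cultures then had 10 higher and 16 lower, where 36.3% of all genes tested were higher and 34.4% lower, so the lower share was near that of all genes. Induced mouse Dux against induced luciferase cultures then had 37 higher and 3 lower (41.6% and 40.1% of all genes tested).

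**Figure D5:**
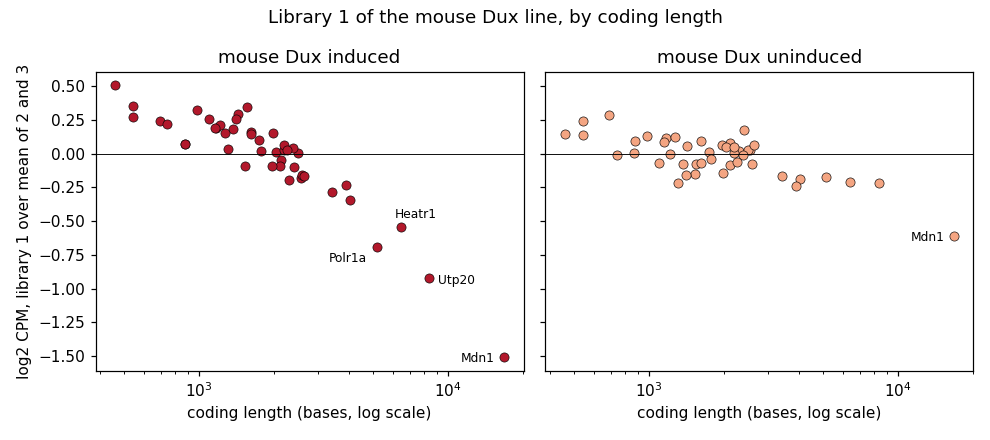
Log2 of the CPM in library 1 over the mean of libraries 2 and 3 (vertical axis) by coding length in bases (horizontal axis, log scale) for the 45 genes, in induced (left) and uninduced (right) mouse Dux cultures. Mdn1, at 16767 coding bases, lies lowest in both panels, at −1.51 and −0.61.

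Of the 45 genes, 8 hold annotated snoRNA genes within their bounds, 23 in all: Ncl, Nop56, Nop58, Dkc1, Wdr43, Tsr1, Ppan and Gnl3. The snoRNAs themselves were not analysed here. These 8 genes had a median of 0.95 with mouse Dux, against 0.72 for the other 37, and −1.08 with human DUX4, against −0.63. Of the 8 members with the largest opposite responses, 5 were among them. This split was chosen after the values were seen and has no test.

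Related genes outside the module were counted for context. Of all genes tested, 34.1% were higher and 34.8% lower with mouse Dux, and 34.4% were higher and 33.1% lower with human DUX4. Of 42 other small-subunit and 40S factors, 35 were higher and 1 lower with mouse Dux (median 0.56), and 6 were higher and 22 lower with human DUX4 (median −0.19). Of 46 other large-subunit and 60S factors, 38 were higher and 3 lower with mouse Dux (median 0.63), and 12 were higher and 22 lower with human DUX4 (median −0.13). Of 16 other RNA polymerase I factors, 10 were higher and 2 lower with mouse Dux and 5 were higher and 8 lower with human DUX4. With human DUX4 these lists thus had members called in both directions, among them the 40S factors Wdr36 (0.85) and Rcl1 (−1.55) and the 60S factors Sbds (0.79) and Rrp15 (−1.17). RNA polymerase III subunits and associated factors, 17 genes, had 5 higher and 5 lower with mouse Dux. With human DUX4 they had 7 higher and 4 lower, and both pairs are near those shares of all genes tested. Of 34 Myc-linked growth and metabolism genes, 24 were higher and 3 lower with mouse Dux, and 5 were higher and 29 lower with human DUX4. Odc1, the first enzyme of polyamine synthesis, rose by 1.90 with mouse Dux, Srm, the next enzyme of that path, fell by 2.09 with human DUX4, and the hexokinase gene Hk2 rose in both lines (2.11 and 2.34). Ribosomal proteins were called mostly in the human DUX4 line. Of 55, 2 were higher and 3 lower with mouse Dux (median 0.02), 0 were higher and 52 lower with human DUX4 (median −0.48), and 3 were higher and 0 lower with luciferase. Their genes have many near-identical copies, so single values are uncertain. In the Myc network, 13 of 15 genes were tested, not all of them transcription factors. Of these, 3 were higher and 5 lower with mouse Dux, and 7 were higher and 3 lower with human DUX4. With 13 genes, these counts are read only beside the shares of all genes tested given above. Mycl fell in both lines (−3.58 and −4.02), and the genes of Mxd proteins, which oppose Myc, moved in both directions with human DUX4, where Mxd1 rose (1.58) and Mxd3 fell (−2.61). Mycl and Mxd3 also fell with luciferase (−1.26 and −3.21), and Mxd4 fell with mouse Dux (−1.62). Mycl was near the floor in induced human DUX4 cultures, at 0.0669 to 0.264 CPM, against 2.94 to 3.19 CPM in uninduced ones. Beside these stand the 16 replication and mitosis genes, of which 3 were higher and 7 lower with mouse Dux (median −0.15) and 1 was higher and 15 lower with human DUX4 (median −1.95). Their part in the human DUX4 results was not tested.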

How the data were processed

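RNA-seq counts per gene were measured in 18 libraries in 6 groups of 3 separately grown cultures. The deposited values are raw read counts for 24028 genes. Per the submitters' processing notes, the authors used CASAVA, TopHat2 2.0.12, Bowtie2 2.2.3 and the mm10 build. No source used here names the counting program, annotation or strand setting, so genes with near-identical copies or overlaps are uncertain. No per-sample column was left unmapped.

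Genes without enough counts were removed with filterByExpr, which left 13602, while 5017 had no count in any library. One edgeR 4.0.16 quasi-likelihood model (R 4.3.3, limma 3.58.1) with 6 group means was fitted to all libraries with TMM scaling, and p-values were adjusted over all genes tested by Benjamini-Hochberg, with calls at 0.05. The estimated biological variation between libraries of a group was 6.25%. Standard errors are the size of the log2 fold change over the root of F. Sums are CPM. The code of the fit was tried on simulated data, with a single spread for all genes and known changes in a single group. The simulation did not hold the library 1 pattern, so it does not bear on the calls in these data. Alternatives were DESeq2 1.42.0, other scalings, no filter, only the groups compared, the replicate number as a block and leaving out each library.

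The members and lists were chosen with earlier results of these data known. By rule, the text gives in full the 5 members with the highest and the 5 with the lowest log2 fold change in each of the mouse Dux and human DUX4 comparisons and the 8 with the largest difference of opposite responses, 20 in all. Other members are given where they complete a role. The comparisons with induced luciferase, leaving out both mouse Dux libraries numbered 1, the length definitions, the snoRNA split and the short E-box sites were added after the data were seen. Promoters are from RefSeq on GRCm38.p6 and gene positions from GENCODE on GRCm38. Binomial intervals cover counting error only.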

Additional observations from a re-analysis of the deposited data

Results flagged for a closer look

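The responses to mouse Dux and to human DUX4 differed by the interaction test in 44 of the 45 members, those to mouse Dux and luciferase in 42 (41 higher and 1 lower), and those to human DUX4 and luciferase in 32 (edgeR quasi-likelihood test, adjusted p under 0.05). Of all genes tested, 32.9% were higher and 32.3% lower in the first of these differences. In the second, 30.4% were higher and 29.5% lower, and in the third 28.3% were higher and 26.7% lower. These 3 comparisons share libraries. The 8 members named next were called in opposite directions with mouse Dux and human DUX4 and had the largest difference of responses. The mouse Dux minus human DUX4 difference in log2 response was 3.22 for Myc and 2.67 for Nop56. It was 2.49 for Dkc1, 2.44 for Nop58 and 2.36 for Gnl3. For the 60S factors Ppan, Rrs1 and Nop2 it was 2.15, 2.14 and 2.04. Each of the 8 was higher in every induced than in every uninduced mouse Dux library, and lower in every induced than in every uninduced human DUX4 library. Of all genes tested, 32.4% were so with mouse Dux and 36.4% with human DUX4. Because the 8 were picked by their responses in these same libraries, this is a description only. Line and clone cannot be told apart from transgene in these differences.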

How the results depend on the processing

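Of the alternative values, 1057 of single named genes kept their direction and side of the threshold, 52 lost and 2 gained the call, and 9 changed sign, and 294 counts, medians and sums stayed and 18 moved. The cause was not tested. With mouse Dux, 1 member fell with median-of-ratios size factors, with DESeq2 and with only the groups compared, and 1 to 2 fell without single libraries. The rises of Gar1 (0.31), Polr1a (0.30), Utp20 (0.54) and Mdn1 (0.94) were not called with only the groups compared. With human DUX4, 0 to 1 rose without single libraries. With only the groups compared, 14 members fell with luciferase, and the count over all genes under this setting is not given here. With library size only, 2 members were lower in the mouse Dux minus luciferase response, where 5972 of all genes tested were lower. Under this scaling 11 members were higher in uninduced mouse Dux than in uninduced luciferase cultures, where 5240 of all genes tested were higher. In induced mouse Dux against induced luciferase cultures 6 members were then lower, where 6426 of all genes tested were lower. Under the same scaling the summed level was 4636 CPM in induced and 3556 CPM in uninduced mouse Dux cultures, 4889 CPM in uninduced human DUX4 cultures and 3216 CPM in uninduced luciferase cultures. The Ubtf difference was then −0.10, and the mouse Dux responses of Pes1 and Npm1 were −0.0438 and −0.0221. With luciferase, Myc was −0.00309 with median-of-ratios size factors, −0.00329 with DESeq2 and −0.0299 to 0.0443 without single libraries, and Ppan was −0.0774 to 0.0381 without them. In the 250 bases before the start alone, 7.89% of members and 9.64% of genes tested had the E-box.

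With the replicate number as a block, 42 members rose and 2 fell with mouse Dux, 1 rose and 42 fell with human DUX4, 3 rose and 9 fell with luciferase, and 44 differed between the mouse Dux and human DUX4 responses. The call lost was Polr1a. Counts over all genes with the block are not given here. For each library, deviations of log CPM from the group mean were taken over all genes tested. Between same-numbered induced and uninduced libraries they correlated at 0.219, 0.105 and 0.080 in the mouse Dux line, and −0.03 to 0.03 in the others. Each mouse Dux library 1 correlated at −0.165 to −0.125 with libraries 2 and 3 of the other group. Induced 2 with uninduced 3 gave 0.093, and induced 3 with uninduced 2 gave 0.087. The mouse Dux libraries numbered 1 thus deviated together, while libraries 2 and 3 were not matched by number. The numbers were not taken to pair the samples.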
